A study of Rattus norvegicus with 44 samples.

Results

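The 10 genes described here are mitochondrially encoded: they are carried by the mitochondrial genome and not by the chromosomes of the nucleus. They were chosen by name from the deposited expression table, as *Mt-nd1*, *Mt-nd2*, *Mt-nd4*, *Mt-nd5*, *Mt-nd6*, *Mt-cyb*, *Mt-co1*, *Mt-co2*, *Mt-co3* and *Mt-atp6*. The table held 18347 gene identifiers in 24694 rows, 13 of them named as mitochondrial protein genes and 24 more named AY172581 with a number, after the record of the rat mitochondrial genome. Rows of 1 identifier were summed, and every member passed the filter on low values, a mean of at least 5.

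The respiratory chain passes electrons from nutrients to oxygen and pumps protons across the inner mitochondrial membrane, and ATP synthase uses the returning protons to make ATP. Most of its subunits are encoded in the nucleus, but the catalytic core of complexes I, III and IV and part of ATP synthase depend on genes of the mitochondrial genome. These are transcribed inside the organelle from opposite strands as long precursors that are cut into single messengers, so neighbouring messengers start from shared transcripts. Neurons depend heavily on this pathway for the ATP that restores ion gradients after firing.

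Poly(A)-selected RNA of the dentate gyrus, the hippocampal subregion that receives the main cortical input, was sequenced from 1 hemisphere of each of 44 male F344 rats. The 10 young adults (YNG, 6 months) had received vehicle. The older rats, labelled by the age at which treatment began, 12 months, had been given by oral gavage until 18 months either vehicle (AV, 12 rats), the Bcl-2 family inhibitor ABT-263 at 12 mg/kg (AA, 11 rats) or dasatinib at 1.2 mg/kg with quercetin at 12 mg/kg (ADQ, 11 rats). Treatment ran for 5 days per cycle, over 8 cycles and a final round, and tissue was taken 2 weeks after the last dose. ABT-263 and the dasatinib and quercetin pair are senolytics, drugs meant to clear senescent cells, and the comparisons ask how age and each treatment were associated with the transcriptome. No genotype differed between the groups. All AV, AA and ADQ rats had been gavaged over the same span of age, from 12 to 18 months, whereas no group of young rats was given a senolytic.

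The values are normalized read counts, scaled by the authors with median ratios, and they summed to 14297964 to 20579982 per rat. The rat numbers fell into a lower and a higher series (a, with 22 rats, and b, with 22 rats), each of which held rats of all 4 groups. In series b the AV rats had the numbers 4566 to 4572, and the AA and ADQ rats 4031 to 4110. Within series b a difference of AV from AA or ADQ therefore cannot be told apart from one between these number blocks. The young rats have V numbers of their own, and V1 to V6 were placed in a and V9 to V12 in b. The labels do not say what the series are or tie V numbers to them, so this placement is an assumption. AABR07000398.1, a row of unknown function, was 2.21 log2 units higher in series b than in a (SE 0.16, limma adjusted p = 1.09e-12) and took 0.422% to 11.1% of a rat's total. Among the young rats it took 0.751% to 1.52% in V1 to V6 and 4.18% to 11.1% in V9 to V12. It parts the young rats at the cut used, so this p does not test their placement. The granule cell markers *Prox1* and *C1ql2* were detected in every rat. They were lowest in the AA rat 4107, at 609 and 1266 against medians of 2592 and 5874, and the AV rat 3989 had the highest sum of 4 red blood cell genes, 90354 against a median of 8268.

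Together the 10 messengers made up 5.59% to 19.3% of all normalized counts of a rat. Their share ran from 5.95% to 16.5% in YNG with a median of 12.5%, and from 5.59% to 19.3% in AV with a median of 9.03%. In AA it ran from 6.93% to 12.1% with a median of 8.22%, and in ADQ from 6.26% to 11.0% with a median of 8.42%. The young and older groups overlapped, since 2 young rats, V10 and V11, had 5.97% and 5.95%, below every AA and ADQ rat. AA and ADQ lacked the rats above 13% that both vehicle groups held. This cut was set after the shares were seen, and the AV rat 3890 lay just above it at 13.1%. A share is bounded by the other genes, and no test was made on it. In bulk tissue, fewer cells or mitochondria and fewer messengers per mitochondrion cannot be told apart.

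**Figure D1:**
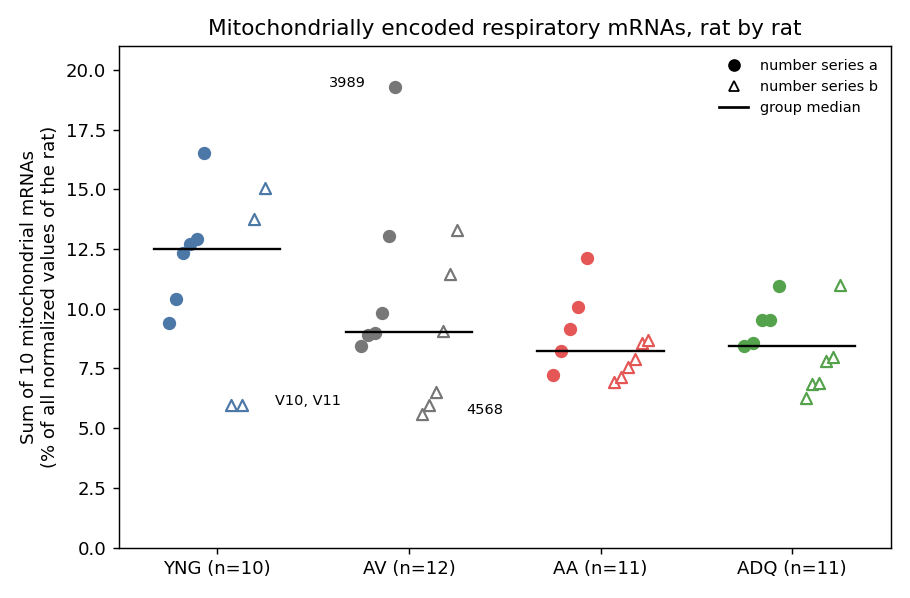
Summed normalized counts of the 10 members as a percentage of all normalized counts of the rat (vertical axis, linear) in the 4 groups, with 1 point per rat, filled circles for number series a, open triangles for series b and a line at the group median. The YNG median is 12.5%, those of AV, AA and ADQ are 9.03%, 8.22% and 8.42%, and V10 and V11 lie near the bottom of the whole range although they are young.

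Each member was tested with limma on log2(value + 1), with all 44 rats in 1 fit, and called at an unadjusted p below 0.05, the threshold of the study. The Benjamini-Hochberg adjusted p covers the 15598 genes tested. For the 34 older rats against YNG, 8 of 10 members were lower and none higher, where 16.7% of all genes tested were called lower. At an adjusted p below 0.05, 4 of the 10 were lower, against 8.23% of all genes. The median log2 difference of the members was -0.50, and that of all genes tested was 0.004. These shares depend on the scaling: as deposited, 2449 of all genes were called higher in older rats and 2609 lower, and with every rat scaled to an equal total it was 4953 and 1013, with the median of all genes at 0.13. On that scale 6 members were lower in older rats against 6.49% of all genes, and the members' median was -0.37. The difference between the members' median and that of all genes was -0.50 on both scales. A scaling factor per rat moves all genes nearly alike, so this equality was fixed in advance and does not test the scaling. By group, the members called lower numbered 2 in AV, 9 in AA and 7 in ADQ. Of all genes tested, 10.7%, 14.1% and 14.6% were called lower in the same comparisons. At the adjusted threshold the counts were 0 in AV, 0 in AA and 1 in ADQ, against 0.539%, 2.31% and 3.96% of all genes. With equal totals the AV, AA and ADQ counts were 0, 6 and 4, against 4.21%, 4.89% and 5.82%. These comparisons share the YNG rats, so their counts are not independent. The AV count was the least stable: it was 6 without the AV rat 3989, 5 without V10 or without V11, 4 without the AV rat 4567, 3 without the AV rat 4572, and 1 or 0 when any of 32 other rats was left out.

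**Figure D2:**
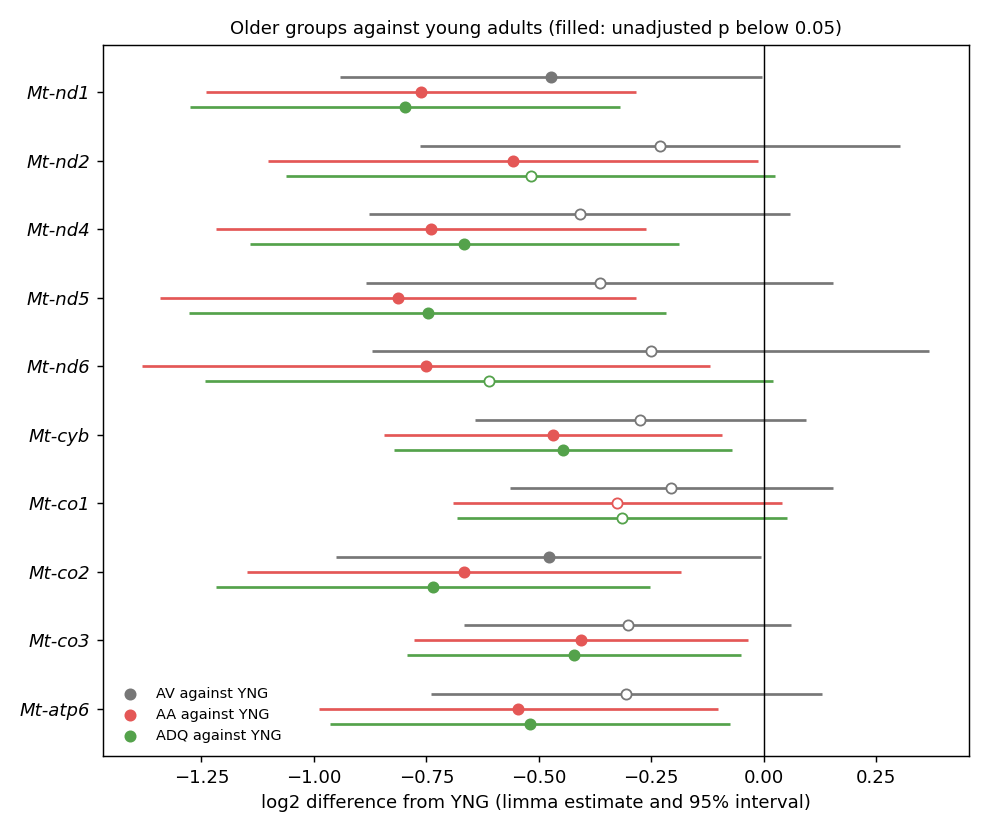
log2 differences of AV (grey), AA (red) and ADQ (green) from YNG for each member, as the limma estimate with its 95% interval, filled where the unadjusted p is below 0.05. All 30 estimates lie left of 0, with 2, 9 and 7 of them filled for AV, AA and ADQ, and the AV estimate is the nearest to 0 for each member.

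Complex I, NADH dehydrogenase, is the entry point of electrons from NADH, and its membrane arm is built around the ND proteins. *Mt-nd1*, whose product lies where that arm meets the quinone site, ran from 56705 to 285896 normalized counts in YNG with a median of 146837. It ran from 56297 to 232711 in AV with a median of 86579. The medians were 77271 in AA, within 63312 to 126557, and 80284 in ADQ, within 64683 to 134026. All 4 groups overlapped, with V10 the lowest young rat. *Mt-nd1* fell by 0.68 on the log2 scale in older rats (SE 0.20, p = 0.00117, limma adjusted p = 0.0214), which is a fall by 37.5%. The differences from YNG were -0.47 in AV (SE 0.23, p = 0.0480, adjusted p = 0.231), -0.76 in AA (SE 0.24, p = 0.00245, adjusted p = 0.0547) and -0.80 in ADQ (SE 0.24, p = 0.00159, adjusted p = 0.0350). It was the member called in ADQ at the adjusted threshold.

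*Mt-nd4* and *Mt-nd5* encode antiporter-like subunits of the proton-pumping arm. *Mt-nd4* had a median of 124780 in YNG against 78072, 71868 and 75892 in the AV, AA and ADQ rats, and its highest value, 248261, was in the AV rat 3989. Its lowest value, 51699, was also in an AV rat, 4568, so the AV rats enclosed all others. It fell by 0.60 in older rats (SE 0.20, p = 0.00339, limma adjusted p = 0.0344). *Mt-nd5* had a median of 80133 in YNG against 50462, 46500 and 50068 in the AV, AA and ADQ rats. Its YNG rats ranged from 36133 to 222506, and the 11 AA rats kept to 37014 to 69556. It fell by 0.64 in older rats (SE 0.22, p = 0.00487, limma adjusted p = 0.0404), and its difference from YNG in AA, -0.81 (SE 0.26, adjusted p = 0.0590), was the lowest of the 30 estimates against YNG.

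*Mt-nd2*, another antiporter-like subunit, had a median of 89961 in YNG against 71291, 52721 and 64192 in the AV, AA and ADQ rats. It was called in AA alone, at -0.56 (SE 0.27, p = 0.0450, limma adjusted p = 0.177), and not called once any of 14 rats was left out. Its older against YNG difference was -0.44 (SE 0.22, p = 0.0568). *Mt-nd6* is the only protein gene of the light strand, and its messenger is antisense to the long precursor of the other members. The strand setting of the counting is not given in the sources used here, so reads from the 2 strands may not be separated. *Mt-nd6* had a median of 25409 in YNG against 14327, 14178 and 13894 in the AV, AA and ADQ rats, with 69175 in the AV rat 4567 and 8824 in V11 as its extremes. It was lower in AA at -0.75 (SE 0.31, p = 0.0210) and in older rats at -0.54 (SE 0.26, p = 0.0432, limma adjusted p = 0.140). Leaving out any of 17 rats ended the call in older rats.

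*Mt-cyb* encodes cytochrome b, the subunit of complex III that carries the quinone sites. Its values were 110738 to 337217 in YNG with a median of 212249, and its medians were 157986, 143346 and 151070 in AV, AA and ADQ. The older rats reached from 103145 in the AV rat 4568 to 365204 in the AV rat 3989, so they overlapped the young rats throughout. *Mt-cyb* fell by 0.40 in older rats (SE 0.15, p = 0.0132, limma adjusted p = 0.0681), and was called in AA (-0.47, SE 0.19) and ADQ (-0.45, SE 0.19) but not in AV (-0.27, SE 0.18, p = 0.140).

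Complex IV, cytochrome c oxidase, hands electrons to oxygen, and 3 of its subunits are mitochondrially encoded. *Mt-co1* encodes the subunit that holds the oxygen-reducing haem and copper centre. It ran from 260657 to 758630 in YNG with a median of 507718, and the AV, AA and ADQ medians were 408634, 390960 and 372202. It was not called in any comparison, with -0.28 in older rats (SE 0.15, 95% interval -0.58 to 0.02, p = 0.0663). *Mt-co2* encodes the subunit that receives electrons from cytochrome c, and its YNG rats ran from 116843 to 477686 with a median of 289773.

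The *Mt-co2* medians of the older groups were 191285 in AV, 174561 in AA and 148166 in ADQ. Its highest value, 486534, was in the AV rat 4572, and its lowest, 100017, in the ADQ rat 4006. *Mt-co2* fell by 0.63 in older rats (SE 0.20, p = 0.00269, limma adjusted p = 0.0312) and was called in AV, AA and ADQ, with -0.48, -0.67 and -0.73. *Mt-co3*, the last of these core subunits, had a median of 185309 in YNG against 134316, 125746 and 126646 in the AV, AA and ADQ rats. It fell by 0.38 in older rats (SE 0.15, p = 0.0168, limma adjusted p = 0.0781) and was called in AA and ADQ. The size of the *Mt-co1* and *Mt-co2* changes was not tested for a difference between the genes.

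*Mt-atp6* encodes the ATP synthase subunit that forms the proton path against the rotor. It ran from 121903 to 441594 in YNG with a median of 292024. The AV, AA and ADQ medians were 191924, 169537 and 167383, and again AV held both extremes, 118205 in 4568 and 573097 in 3989. *Mt-atp6* fell by 0.46 in older rats (SE 0.18, p = 0.0155, limma adjusted p = 0.0746) and was called in AA (-0.55) and ADQ (-0.52) but not in AV (-0.30, p = 0.165).

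**Figure D3:**
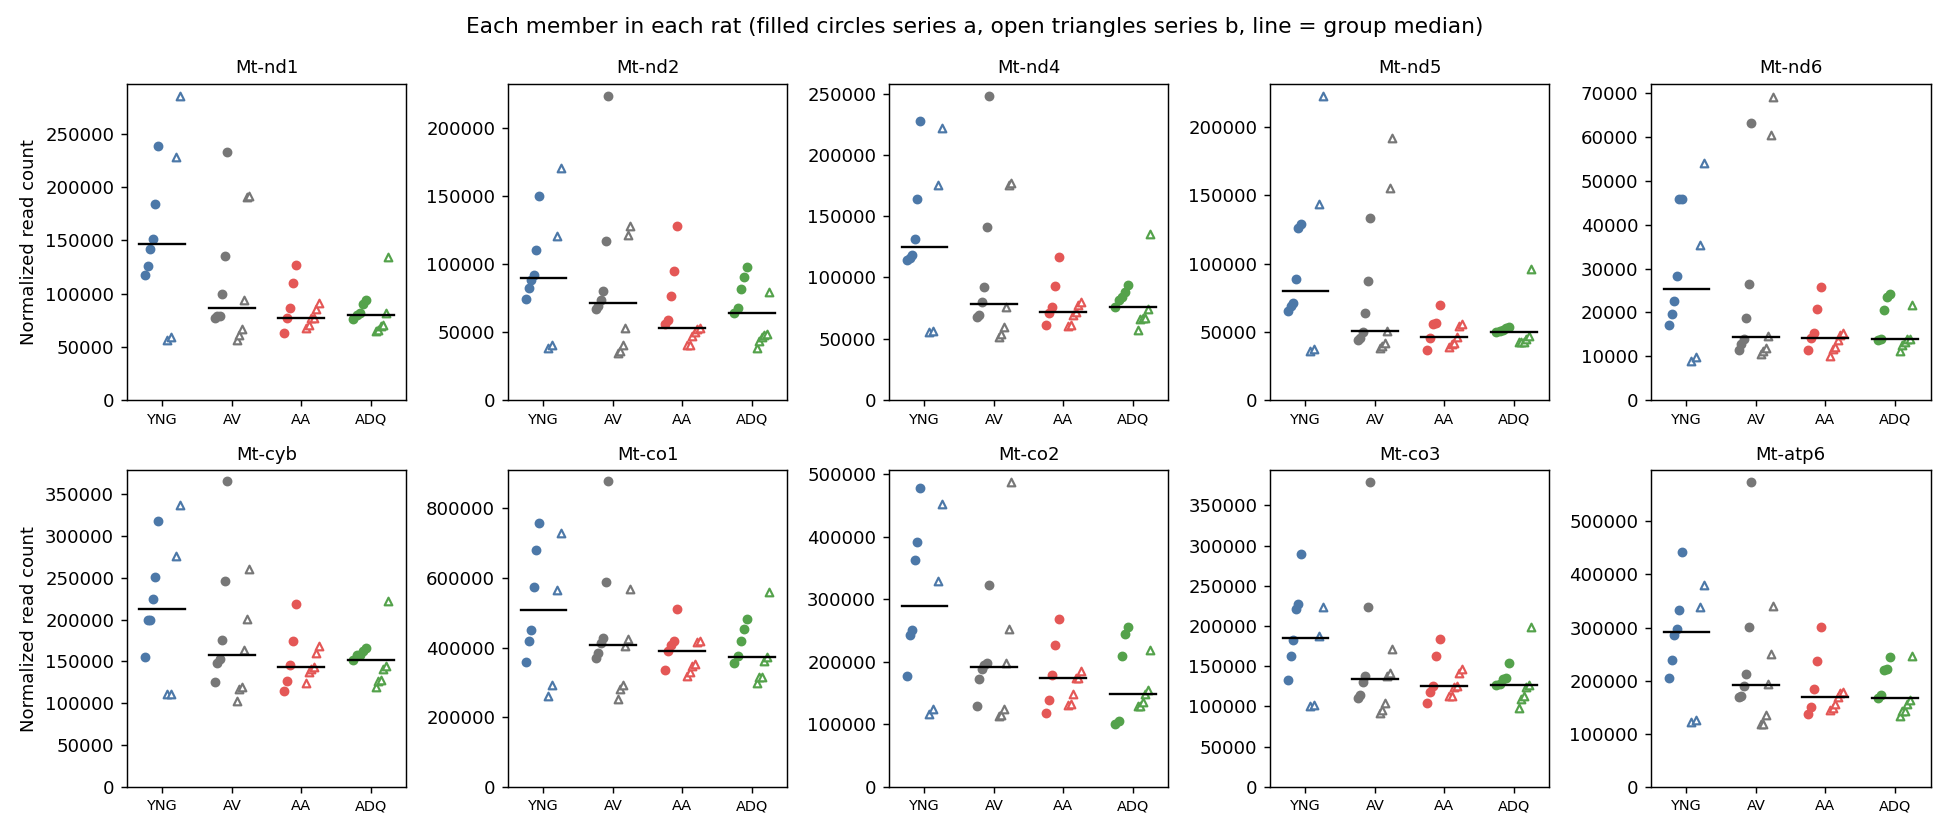
Normalized read counts (vertical axes, linear, each panel on its own scale) of each member in every rat of the 4 groups, filled circles for series a, open triangles for series b and a line at the group median. The YNG median is above the 3 older medians in each panel, and single AV rats reach the YNG range or above it, such as 573097 for *Mt-atp6*.

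The order of the fitted group means was alike over the members. YNG was highest and AV next for each of the 10, and AA and ADQ exchanged places. The older groups were not shown to differ from one another: no member was called between them, where 3.1% of all genes tested were lower in AA than in AV, 5.9% in ADQ than in AV and 2.4% in AA than in ADQ. The log2 differences ran from -0.50 to -0.10 for AA against AV, from -0.38 to -0.11 for ADQ against AV and from -0.14 to 0.07 for AA against ADQ. The smallest p for AA against AV was 0.0812, for *Mt-nd5* at -0.45 (95% interval -0.95 to 0.06, limma adjusted p = 0.999). For ADQ against AV it was 0.135, again for *Mt-nd5*, at -0.38 (95% interval -0.89 to 0.12). Both intervals reach falls larger than the estimated AV against YNG difference of the same gene, -0.36. One member, *Mt-nd5*, was called for AA against AV when either of the AV rats 4566 and 4568, which are low in the members, was left out.

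The members moved together from rat to rat. With each rat taken from its group mean on the log2 scale, the 45 pairs of members had correlations of 0.667 to 0.979 over 44 rats with a median of 0.866. The extremes were *Mt-co2* with *Mt-co3* (Spearman 0.627) and *Mt-nd1* with *Mt-nd4*. All points of a pair share a library and its scaling. The AV rat 4568 and V10 were among the 5 lowest rats for 10 members each, the AV rat 4566 for 9 and V11 for 8. The AV rat 3989 was among the 5 highest for 9 members, V1 and V9 for 8 and V12 for 7.

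The mix of the members also differed between rats. In the AV rats 4567 and 4572 and the young rats V2, V4 and V12, *Mt-nd5* made up 5.83% to 9.57% of the summed members, and *Mt-co1* 20.1% to 23.5%. In the other 39 rats *Mt-nd5* made up 2.94% to 5.08% and *Mt-co1* 24.7% to 32.3%. *Mt-nd6* followed, at 1.85% to 3.45% in the 5 rats against 0.847% to 1.85% in the others. These shares count reads and are not corrected for gene length, and the 5 rats were picked for their mix, so no test was made. None of the 5 was an AA or ADQ rat. Without them, members were called lower in 1 of 10 cases for AV, 7 for AA, 6 for ADQ and 7 for all older rats, against 12.2%, 8.23%, 8.48% and 12.2% of all genes. The AV count is then near the share of all genes.

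AY172581.9 and AY172581.24, the most abundant of the rows named after the mitochondrial record, equalled 15.8% to 23.4% of the summed members in those 5 rats. In the other 39 rats they equalled 6.96% to 20.5%, with the AA rat 3985 as the highest. The median of the 5 rats was 19.2% and that of the others 9.72%.

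**Figure D4:**
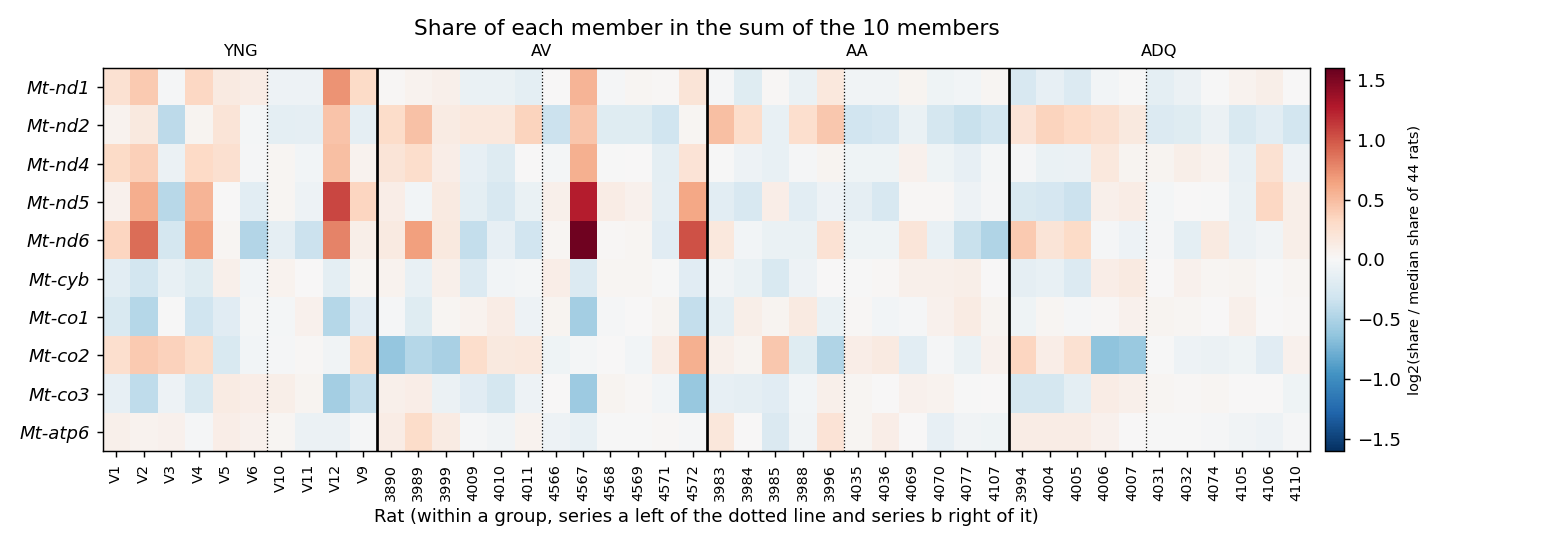
Share of each member in the summed members of a rat, as log2 of the share over the median share of 44 rats (colour, red above and blue below the median), with rats in columns by group and, within a group, series a left of the dotted line and b right of it. Rats 4567, 4572, V2, V4 and V12 are red for *Mt-nd5* and *Mt-nd6* and blue for *Mt-co1*, and most series b rats are blue for *Mt-nd2*.

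*Mt-nd2* also differed between the number series. Leaving out the 5 rats above, it made up 3.53% to 6.56% of the summed members in series a, with a median of 5.53%, and 3.66% to 4.39% in series b, with a median of 4.03%. In a fit with the 4 groups kept apart, *Mt-nd2* was 0.62 log2 units lower in series b (SE 0.17, p = 0.000712, limma adjusted p = 0.0229). *Mt-atp6* (-0.38, p = 0.0152, adjusted p = 0.140), *Mt-co1* (-0.28, p = 0.0260, adjusted p = 0.184) and *Mt-co3* (-0.28, p = 0.0321, adjusted p = 0.209) were lower too at the unadjusted threshold. These 4 of 10 stand against 9.19% of all genes called lower in series b, in a test added after the data were seen.

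With the young rats placed as above, both series held young and older rats, so age and series could be fitted together. These fits rest on that placement, and age was not resolved equally well in each series. In series a alone, 8 members were lower in older rats, 2 in AV, 6 in AA and 5 in ADQ. Of all genes, 20.5%, 18.3%, 16.1% and 15.1% were lower in these comparisons, so the AV count is near that share. In series a *Mt-nd1* ran from 117858 to 239032 in the 6 YNG rats and from 76685 to 94103 in the 5 ADQ rats. The AV and AA rats of series a overlapped the YNG rats, reaching 232711 and 126557. How many of all genes had ranges that part between these YNG and ADQ rats was not counted. Over both series the 2 groups overlapped, with YNG from 56705 and ADQ up to 134026. In series b alone none of the 10 was called in any of these comparisons, with a smallest p of 0.119 for older rats and a median difference of -0.39, against -0.52 in series a. Of all genes, 3.39% were called lower in older rats there, and 2.54%, 5.17% and 2.57% in the AV, AA and ADQ rats, so a count of 0 of 10 is near the share of all genes. The 4 YNG rats of series b lay apart, since *Mt-nd1* was 56705 in the lowest of them and 285896 in the highest. The interaction of series and age was not called for any member, where 20.3% of all genes were called, and its smallest p was 0.404 (limma adjusted p = 0.678). With series as a covariate, 0 members were lower in AV, 8 in AA, 7 in ADQ and 7 in all older rats, against 12%, 15.1%, 15.7% and 17.8% of all genes.

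The remaining mitochondrially encoded rows showed the same direction. *Mt-nd3*, a small complex I subunit, had a mean of 20399 normalized counts in YNG and 8885 in ADQ, and it fell by 0.85 in older rats (SE 0.23, limma adjusted p = 0.0149). *Mt-nd4l*, which overlaps *Mt-nd4*, fell by 0.60 (SE 0.20, adjusted p = 0.0421), and *Mt-atp8*, which overlaps *Mt-atp6*, had a difference of -0.34 (SE 0.20, p = 0.0866). Reads in an overlap cannot be assigned to 1 gene of the pair, and reads of members may also come from nuclear copies of mitochondrial DNA.

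AY172581.9 fell by 0.95 (SE 0.23, limma adjusted p = 0.00930) from a mean of 146374 in YNG to 89311 in AV, 64305 in AA and 58359 in ADQ. AY172581.24 fell by 0.80 (SE 0.24, adjusted p = 0.0262). Of the 22 other AY172581 rows, 19 were lower in older rats and none higher, with a median of -0.82, where 16.7% of all genes were lower. Against YNG, 7 of the 22 were lower in AV, 10 in AA and 21 in ADQ, beside 10.7%, 14.1% and 14.6% of all genes. Of the same rows, 3 were lower in ADQ than in AV, beside 5.9% of all genes. The exceptions in older rats were AY172581.19 (-0.03, p = 0.860), AY172581.6 (-0.58, p = 0.0759) and AY172581.1 (-0.66, p = 0.0513). Most of these rows were sparse, down to a mean of 12.9 for AY172581.8, and short RNAs are poorly kept in poly(A)-selected libraries.

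The nuclear partners of the members were lower as well in older rats. Of the 72 gene identifiers of nuclear subunits of complexes I, III, IV and V, 56 were lower and none higher, with a median of -0.34. *Ndufv3*, *Uqcrb* and *Cox6b1* entered with more than a single identifier, each counted on its own. For *Ndufv3* these had -0.26 (limma p = 0.00516) and 0.15 (limma p = 0.405). The shares of all genes tested called lower and higher in older rats were 16.7% and 15.7%. For complex I it was 31 of 35, among them the structural subunit *Ndufb10* (-0.53, limma adjusted p = 0.0111), the NADH-binding *Ndufv1* (-0.49, adjusted p = 0.0124) and *Ndufa13* (-0.76, adjusted p = 0.0168). For complex III it was 7 of 10, with *Uqcrb* (-0.63), cytochrome c1 *Cyc1* (-0.33) and the core protein *Uqcrc1* (-0.34). The other *Uqcrb* identifier was called too, at -0.39. For complex IV it was 7 of 12, with *Cox6c* (-0.56), *Cox6b1* (-0.49) and *Cox5a* (-0.38). The other *Cox6b1* identifier had -0.14 and was not called (limma p = 0.114). For ATP synthase it was 11 of 15, with *Atp5pd* (-0.63), *Atp5f1c* (-0.32) and *Atp5mg* (-0.40). Complex II, succinate dehydrogenase, has no mitochondrially encoded subunit: *Sdhb* (-0.36) and *Sdhc* (-0.30) fell and *Sdha* (-0.04, p = 0.507) and the remaining subunit were not called.

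Genes that make or handle mitochondrial RNA showed no common direction. With 16.7% of all genes tested lower in older rats and 15.7% higher, the counts below are near these shares for lists this short. None of the 9 transcription genes was lower and 1 was higher, *Polrmt*, the mitochondrial RNA polymerase (0.24, p = 0.0304, limma adjusted p = 0.113). *Mterf2* (0.26, p = 0.0501) and *Mterf4* (-0.21, p = 0.0614) were not called. Of 17 genes of RNA processing and decay, 4 were lower and 3 higher. *Hsd17b10*, a subunit of mitochondrial RNase P, fell by 0.42 (adjusted p = 0.0111), while the exoribonuclease *Pnpt1* (0.32, adjusted p = 0.0338) and the deadenylase *Pde12* (0.26, p = 0.00830) were higher. Of 9 genes of mitochondrial DNA upkeep, 2 were lower, the helicase *Twnk* (-0.65, adjusted p = 0.00724) and the topoisomerase *Top1mt* (-0.23, p = 0.0211), and *Tk2* had 0.14 (p = 0.0668). Of 8 nuclear regulators 1 was higher, *Pprc1* (0.14, p = 0.0186), and *Ppargc1a* (0.26, p = 0.107) and *Ppargc1b* (0.19, p = 0.273) were not called. The median of these 4 lists lay between -0.06 and 0.05.

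**Figure D5:**
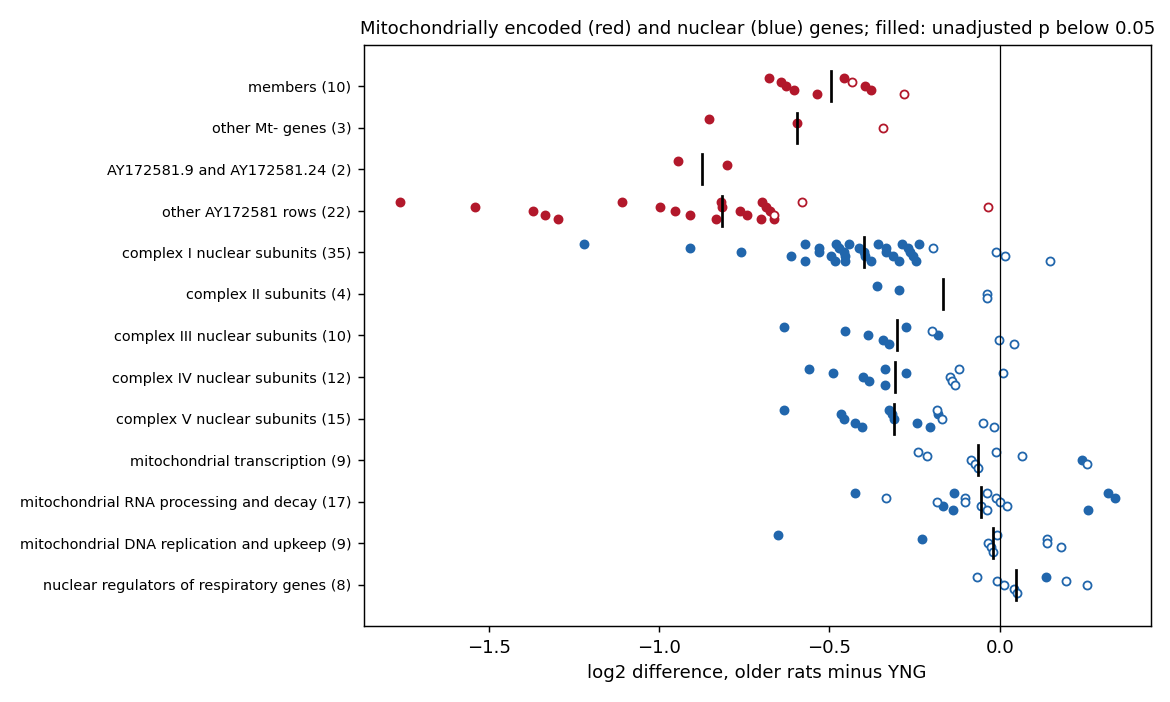
log2 differences of older rats from YNG (horizontal axis) for each gene of the mitochondrially encoded groups (red) and the nuclear lists (blue), with the number of genes in brackets, filled points for an unadjusted p below 0.05 and a black line at the median. The medians are -0.50 for the members, -0.82 for the 22 other AY172581 rows and -0.40 for nuclear complex I, and those of the 4 lists at the bottom lie between -0.06 and 0.05.

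Over the 44 rats, each taken from its group mean, the genes of at least 20 normalized counts that followed the mean log2 value of the members most closely were *Abhd12* (r = 0.888, Spearman 0.813), *Tnfsf13* (r = 0.874, 0.809) and *Mxi1* (r = 0.858, 0.858). Those that ran most against it were *Crebzf* (r = -0.882, Spearman -0.877), *Slc12a5* (r = -0.853, -0.816) and *Ogfod1* (r = -0.834, -0.773). Without V10 and the AV rat 3989, which lay farthest from the median, their r was 0.870, 0.857, 0.803, -0.868, -0.816 and -0.779 in that order. *Abhd12* encodes a lipid hydrolase, and *Slc12a5* the neuronal potassium chloride cotransporter. They are the extremes of 13669 genes, whose median r was 0.043, and the points share library, depth and scaling. The 72 identifiers of nuclear subunits had a median r of 0.488 with the members.

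Markers of some cell types moved with the members from rat to rat too. The 4 red blood cell genes had r of 0.667 to 0.729, the 6 microglia genes a median of 0.585 and the 7 oligodendrocyte genes a median of 0.400. The 6 dentate granule cell genes tested had r of -0.750 to 0.070 with a median of -0.366. Other medians were 0.251 for 4 endothelial, 0.202 for 5 CA1 and 0.093 for 5 astrocyte genes. They were -0.077 for 5 genes of CA3 pyramidal and mossy cells and -0.083 for 5 meningeal genes. The 1 choroid plexus gene with a mean of at least 20 had -0.131. By group, the red blood cell sum ran from 2365 to 26487 in YNG, 3679 to 90354 in AV, 3769 to 26736 in AA and 3318 to 13916 in ADQ. None of its 4 genes was called in older rats against YNG, and all 4 were lower in ADQ than in AV, as were 5.9% of all genes. In AA 1 of the 4 was lower than in AV, as were 3.1% of all genes. The granule cell sum ran from 10561 to 15419 in YNG, 7131 to 14466 in AV, 4002 to 15341 in AA and 11277 to 14318 in ADQ. In older rats 2 of its 6 tested genes were lower, against 16.7% of all genes. No red blood cell or granule cell gene was at 0 in every rat.

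The sum of the 7 oligodendrocyte genes ran from 41170 to 115794 in YNG, and the AV, AA and ADQ sums ran from 53024 to 170349, 51751 to 147154 and 58229 to 76210. Of these genes 6 were higher in AV than in YNG, 3 in AA and 1 in ADQ, and 4 were higher in all older rats. Relative to AV, 4 were lower in ADQ and none in AA. The sum of the 4 endothelial genes ran from 1112 to 3878 in YNG, and the AV, AA and ADQ sums ran from 1932 to 7676, 2014 to 3199 and 1991 to 2484. All 4 were higher in AV than in YNG, and 1 was higher in all older rats. Relative to AV, 3 were lower in ADQ and 2 in AA. Of all genes, 10.6% were called higher in AV and 15.7% in all older rats, and 16.7% lower in all older rats. Of 15598 genes, 1959 were higher in AA and 2104 in ADQ than in YNG. Relative to AV, 5.9% of all genes were lower in ADQ and 3.1% in AA, and 533 were higher in ADQ and 219 in AA. The sum of the 6 microglia genes ran from 2904 to 5451 in YNG, and the AV, AA and ADQ sums ran from 3736 to 6266, 3013 to 4957 and 3117 to 4297. None of them was called in older rats, and 1 was higher in AV than in YNG. Relative to AV, 4 were lower in ADQ and 2 in AA. In older rats 1 of 5 astrocyte genes was lower and 1 of 5 genes of CA3 pyramidal and mossy cells higher, and none of 5 CA1, 4 choroid plexus and 5 meningeal genes was called. Relative to AV, 1 astrocyte gene was lower in AA and 1 in ADQ, and 2 choroid plexus genes were lower in ADQ. Of the genes of CA3 pyramidal and mossy cells, 1 was higher in AA than in AV. In ADQ 1 of these was higher and 1 lower than in AV. The part of these cell types in the differences of the members was not tested. Without the AA rat 4107, lowest in granule cell markers, 1 member was lower in AV, 8 in AA, 7 in ADQ and 7 in all older rats, against 11%, 13.1%, 14.8% and 16.6% of all genes. Without the AV rat 3989 these were 6, 9, 9 and 10, against 10.9%, 14.7%, 15.4% and 17.6%.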

How the data were processed

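The deposited values are a signal, gene counts that the authors scaled per library by median ratios. Reads were trimmed and aligned to rn6 with STAR 2.5.3a in Partek Flow, per the labels and the methods, and DESeq2 is named there for the authors' own tests. The annotation, the strand setting and the way reads were given to rows are not given in the sources used here. Reads that also match nuclear copies of mitochondrial DNA can be lost or shared. A gene could have several rows with fractions of a read, so whole reads could not be recovered and no count model was used. Taking the commonest small value of a rat as 1 read put the totals at about 1.02e+07 to 2.43e+07 reads per rat. V10 was lowest at 1.02e+07, followed by the AA rat 4077 at 1.14e+07, V11 at 1.16e+07 and the AV rat 4568 at 1.21e+07. V10, V11 and 4568 were also low in the members, and a link with depth was not tested. At 8824 to 877127 normalized counts per member and rat, counting error is small beside the spread between rats. The group of each older rat came from the deposited attribute table, matched by rat name, since the labels give ages.

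Rows were summed per gene identifier and genes with a mean of at least 5 were kept. limma 3.58.1 (R 4.3.3) with a trend was fitted to log2(value + 1) over 4 groups, two-sided, checked on simulated data. A fold on this scale understates the change of low genes. Each rat is 1 library, and libraries correlated at 0.8949 to 0.9898, so none was taken as a duplicate. No column of per-rat values was left out. The members and gene lists were chosen with earlier results of these data known. Named are the 10 members, other mitochondrially encoded genes, the 3 genes of lowest p per list for older rats, the 3 highest and 3 lowest correlations, and AABR07000398.1; rats and AY172581 rows singled out were chosen after their values were seen. Of the list of RNAs retained in the nucleus 1 gene was found, Snhg11 (0.14, limma p = 0.385, older against YNG). Alternatives were the pseudocount, the filter, the scaling, the groups fitted, the series and each rat left out. Sequences and lengths of the members were not used here.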

Additional observations from a re-analysis of the deposited data

Results flagged for a closer look

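*Mt-nd5* took 1.26% of all normalized counts in the young rat V12. It was singled out because the gap between this rat and the next of the 10 YNG rats was 0.507 of the whole range of the group, more than Dixon's test for a single stray value allows. Chance alone gives such a mark in about 1 of 20 groups, and 30 measures, each member by count, share of the total and share of the members, were looked at. The normalized count itself, 222506, was not marked, with a gap of 0.423.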

How the results depend on the processing

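The members' counts called lower depended on the call rule: at an adjusted p below 0.05 they were 0 in AV, 0 in AA, 1 in ADQ and 4 in all older rats. The count of 2 in AV became 0 with no filter, with equal totals, with equal totals without mitochondrial genes, with these and AABR07000398.1 left out, with the upper quartile, with the own groups alone, with the series as a covariate, in series b alone and with the non-mitochondrial total as a covariate, and 1 without the 5 rats of unlike mix. It lay at a p just under the threshold. ADQ had 4 with equal totals. Of the genes called in older rats 48.4% were higher as deposited, 83.0% with equal totals, 70.8% without mitochondrial genes, 65.0% with AABR07000398.1 left out too and 61.5% in series b alone. Series b alone, with 4 young rats, gave 0 in AV, 0 in AA, 0 in ADQ and 0 in all older rats. The non-mitochondrial total as a covariate gave 4 in AA and 5 in all older rats, and the cause was not tested. The covariate, the 5 rats and the AABR07000398.1 scaling were chosen after seeing the data. Leaving out 1 rat gave 0 to 6 in AV, 7 to 10 in AA, 4 to 10 in ADQ, 5 to 10 in all older rats and 0 to 1 for AA against AV, with 4 in ADQ and 5 in older rats when V1 was left out. ADQ against AV and AA against ADQ gave 0 in every fit.

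In none of these fits did a called difference from YNG turn in direction. The uncalled difference of *Mt-nd6* in AV changed sign in series b alone (0.0572). Differences between the older groups, none of them called, changed sign in series b alone for *Mt-co1* and *Mt-co3* relative to AV, with values of 0.0240 to 0.0718 in AA and 0.0263 to 0.0492 in ADQ, and for *Mt-co3* without the AV rat 3989 (0.0262 in AA, 0.0109 in ADQ). Between AA and ADQ they changed sign for 9 members when single rats were left out, within -0.0339 to 0.0442, for *Mt-nd5* in series a alone (0.00382), and in series b alone for *Mt-nd1* (-0.0108), *Mt-cyb* (0.0125) and *Mt-atp6* (0.0130). Against YNG, counting each member, comparison and alternative once and leaving out the fits without 1 rat, 82 calls were lost and 2 gained. No paired analysis was possible because the labels number rats singly and pair none across groups.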
